A study of Homo sapiens with 8 samples.

Results

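The 33 genes described here encode chaperones, folding enzymes, stress sensors, degradation factors and translocon subunits of the endoplasmic reticulum (ER), and they were taken by symbol from the 58302 genes listed in both deposited tables, where all 33 were found. All cells were of MOLM-13, an established line of acute myeloid leukaemia. They carried a control hairpin, sh-NC, or the hairpin sh-circMYBL2 that targets circMYBL2, a circular RNA named after the gene MYBL2. Ribosome footprints, short RNA pieces covered by ribosomes, and input RNA were each sequenced from 2 libraries per hairpin, which gives 4 groups of 2. The labels name no other treatment, time or clone, and nothing in them says that the 2 libraries of each group were grown apart, so p-values measure only the spread between these libraries.

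Secreted and membrane proteins enter the ER through the Sec61 channel, with the TRAP complex (SSR1, SSR2 and SSR3) beside it, and are folded by chaperones such as BiP (HSPA5), by the lectins calnexin and calreticulin, and by protein disulfide isomerases. When unfolded proteins build up, the sensors IRE1 (ERN1), ATF6 and PERK start the unfolded protein response: IRE1 splices XBP1 RNA into the form that encodes an active transcription factor, ATF6 is cut to release one, and PERK slows translation while favouring ATF4. Proteins that fail to fold are passed back to the cytosol by ER-associated degradation (ERAD), in which SEL1L and the ubiquitin ligase SYVN1 form the core complex. Myeloid cells make lysosomal and surface proteins that pass through this route.

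Promoters of these genes are known for ER stress elements, bound by ATF6 and XBP1 with the factor NF-Y. Their sequences are shown for HSPA5 and HYOU1, which have such an element and whose RNA fell, for XBP1 and CALR, which have one and did not pass the RNA test, and for SEL1L and EDEM1, whose RNA fell without one in this window. Each line gives the 250 bases before the RefSeq transcript start in GRCh38.p14, 5′ to 3′ on the strand of the gene. Capitals mark an ERSE (CCAAT, then 9 bases of any kind, then CCACG), an ERSE-II (ATTGG, 1 base of any kind, CCACG) or the UPRE core TGACGTGG, on either strand. The windows are chr9:125241344-125241593 for HSPA5, chr11:119057206-119057455 for HYOU1, chr22:28800570-28800819 for XBP1 and chr14:81533854-81534103 for SEL1L on the minus strand, and chr19:12938359-12938608 for CALR and chr3:5187457-5187706 for EDEM1 on the plus strand.
HSPA5: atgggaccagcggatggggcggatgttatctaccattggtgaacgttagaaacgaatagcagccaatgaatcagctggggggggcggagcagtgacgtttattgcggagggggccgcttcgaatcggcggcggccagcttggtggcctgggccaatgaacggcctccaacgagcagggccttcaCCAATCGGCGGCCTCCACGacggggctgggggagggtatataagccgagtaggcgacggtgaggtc
HYOU1: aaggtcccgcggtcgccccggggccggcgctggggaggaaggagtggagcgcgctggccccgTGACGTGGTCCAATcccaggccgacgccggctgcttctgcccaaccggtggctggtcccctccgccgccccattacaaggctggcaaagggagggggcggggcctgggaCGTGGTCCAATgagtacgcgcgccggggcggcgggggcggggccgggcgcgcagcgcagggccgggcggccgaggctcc
XBP1: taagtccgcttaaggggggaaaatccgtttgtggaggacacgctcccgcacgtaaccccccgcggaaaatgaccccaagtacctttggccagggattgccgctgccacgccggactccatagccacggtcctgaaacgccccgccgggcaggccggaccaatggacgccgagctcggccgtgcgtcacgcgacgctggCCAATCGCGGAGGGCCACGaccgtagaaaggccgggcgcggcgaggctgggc
CALR: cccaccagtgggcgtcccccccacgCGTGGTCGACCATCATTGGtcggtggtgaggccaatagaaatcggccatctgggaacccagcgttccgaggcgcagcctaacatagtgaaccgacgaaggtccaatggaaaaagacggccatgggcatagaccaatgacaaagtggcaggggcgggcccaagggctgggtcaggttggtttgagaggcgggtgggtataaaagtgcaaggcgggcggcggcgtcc
SEL1L: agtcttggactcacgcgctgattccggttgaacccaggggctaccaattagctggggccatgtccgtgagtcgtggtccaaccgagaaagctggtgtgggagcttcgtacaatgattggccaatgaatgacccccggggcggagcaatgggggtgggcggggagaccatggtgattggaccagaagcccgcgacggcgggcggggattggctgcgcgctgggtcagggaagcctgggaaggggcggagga
EDEM1: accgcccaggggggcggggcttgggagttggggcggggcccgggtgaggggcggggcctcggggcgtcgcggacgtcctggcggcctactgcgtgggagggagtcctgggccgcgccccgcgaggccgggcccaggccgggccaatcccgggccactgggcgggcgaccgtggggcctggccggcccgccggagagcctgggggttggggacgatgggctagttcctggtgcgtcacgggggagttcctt

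The whole search used 300 bases per start, 250 before and 50 after it, and found windows for 31 of the 33 members (40 windows, since CANX, PDIA4, PDIA6, SEC61A1, SSR3 and XBP1 have several). DERL1 and PDIA3 were not matched. An ERSE was present in 7 members (CALR, CANX, CRELD2, HSP90B1, HSPA5, PDIA6 and XBP1), which is 22.6%, against 0.0916% of the 27305 genes with a window. An ERSE-II was found in HERPUD1, HYOU1 and SDF2L1 (9.68% against 0.0696% of all genes). The UPRE core stood in HYOU1 and in a window of SSR3 (6.45% against 0.927%), and the ATF4-type element TGATGNAA in HERPUD1 only (3.23% against 4.46%). In HSPA5 the element ran from 66 to 48 bases before the start, in XBP1 from 52 to 34, and in CALR from 225 to 207. HYOU1 had an ERSE-II from 185 to 175 and another from 79 to 69 bases before the start, and its UPRE core (188 to 181) overlaps the first of them. Such matches are letters in a window and do not show that a factor was bound.

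**Figure D1:**
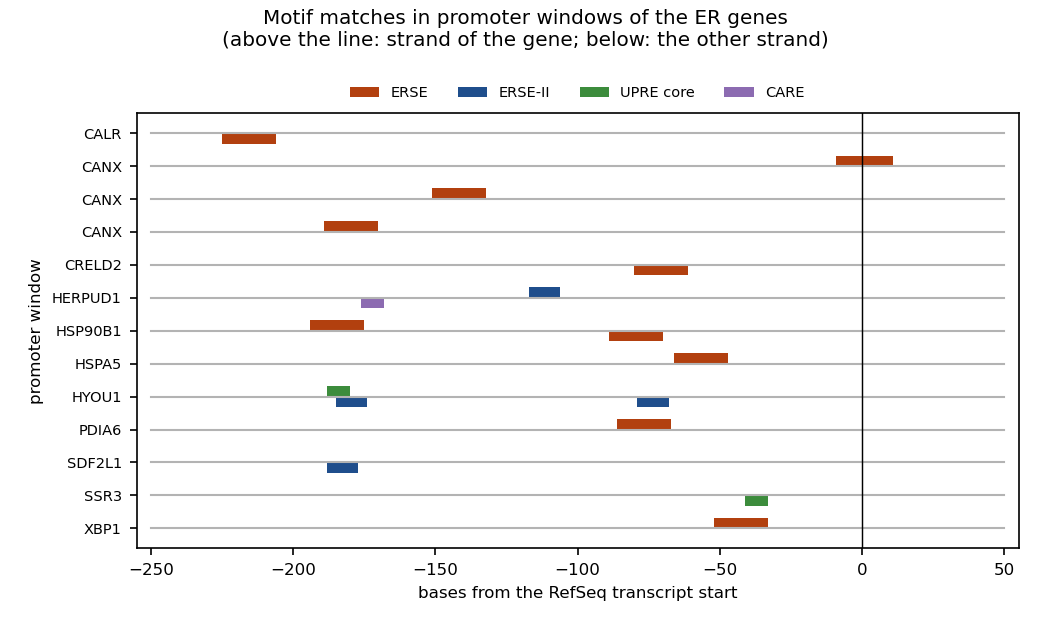
Positions of the 4 motifs in the promoter windows of members that have a match; the x axis is the distance in bases from the RefSeq transcript start, and each line is a window of 300 bases, with the strand of the gene above it and the other strand below it. HYOU1 is the member with 2 ERSE-II matches, and the ERSE of HSPA5 lies from 66 to 48 bases before the start.

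The RNA libraries held 13481483 to 14574577 reads on genes, recovered from the deposited values, and the footprint libraries 80160 and 300379 under sh-NC and 222856 and 715092 under sh-circMYBL2. Protein-coding genes took 33708 to 584185 of the footprint reads, and microRNA genes took 42.7% and 57.2% in the sh-NC libraries against 32.8% and 12.2% in libraries of sh-circMYBL2; the part of this difference in the results was not tested. Across genes, replicate libraries correlated with r of 0.983 for RNA in both groups, and with 0.575 (sh-NC) and 0.804 (sh-circMYBL2) for footprints; genes are not independent replicates. The names of the 2 sh-circMYBL2 footprint columns end in 1 and 2, but the sample titles hold a number in the hairpin's name as well. Both titles give the same hairpin name, as replicates 1 and 2, so by the titles the samples are 2 replicates of 1 hairpin. A number in a column name may stand for hairpin or replicate. Which column is which replicate was therefore not settled, and the columns are called libraries a and b of the sh-circMYBL2 group. The tables count genes, not circles, so they do not show the level of circMYBL2; RNA of MYBL2 itself was at 1.46 and 1.15 FPKM with sh-NC and at 3.53 and 3.72 FPKM with sh-circMYBL2. Of 12 myeloid markers, 11 passed the filter in RNA and CD68 was near 0. With sh-circMYBL2, 3 were called higher (FLT3, ITGAM and CEBPA, 27.3% against 4.92% of all genes tested) and none lower (against 3.96%). Changes were positive in 7 of the 11 and negative in 4, among them MPO (-0.35) and CD33 (-0.14), which did not pass. The summed RNA level of the 12 was 819 to 860 FPKM with sh-NC and 1008 to 1052 with sh-circMYBL2. Most of this sum was LYZ, which was not called, with 604 and 557 FPKM against 754 and 705 FPKM. The part of these differences in the results below was not tested. No marker of plasma and B cells (7 of the 8 listed are in the tables), T cells (3), erythroid cells (5) or adherent cells (6) reached a mean of 1 FPKM. MZB1 and MS4A1 were at 0 in all 4 RNA libraries, and the summed level of the plasma and B cell markers, cells that hold much ER, was 0.117 to 0.155 FPKM with sh-NC and 0.136 to 0.299 with sh-circMYBL2.

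The first comparison asked which of these genes differed in RNA between the hairpins. With sh-circMYBL2, input RNA of 5 members fell: HSPA5, its co-chaperone HYOU1, the disulfide isomerase PDIA3, and the degradation factors SEL1L and EDEM1. SSR3 of the translocon rose. The other 26 of the 32 members tested did not pass (limma, two-sided, adjusted over all genes at 0.05), and CRELD2 was below the filter of a mean of 1 FPKM. In simulated RNA data, the same fit called 29.9% of genes changed 1.5-fold and 87.8% of those changed 4-fold. Members that did not pass are therefore not shown to be unchanged. The share called lower was 15.6% of the members against 3.96% of the 12489 genes tested, and the share called higher 3.12% against 4.92%. The members were chosen with earlier results of these data known, so these shares and those given below are descriptions and no test of the list. The median log2 change was -0.06 over the members and -0.0037 over all genes tested. All 6 calls were lost when any 1 of the 4 RNA libraries was left out, and so were the calls of all genes; the smallest adjusted p of a member was then 0.080 to 0.096. In bulk RNA, fewer cells of a kind and less RNA per cell cannot be told apart.

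Counted without a threshold on p, in 15 of the 32 members (46.9%) both sh-circMYBL2 libraries were below both sh-NC libraries, against 30.7% of all genes tested, and in 8 (25%) both were above, against 30%. Since abundant genes vary less, the test was also made among genes with a mean of at least 5 FPKM: 6 of 29 members (20.7%) were then called lower against 9.47% of those genes, the sixth being XBP1, and 1 (3.45%) higher against 10.6%. With voom on the recovered reads, which uses the read numbers as a measure of precision, 9 members were lower (28.1%, against 12.2% of all genes) and 5 higher (15.6%, against 13.9%). The members that voom added were HSP90B1, XBP1, ERN1 and DERL1 on the lower side and P4HB, CALR, OS9 and SSR1 on the higher side.

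**Figure D2:**
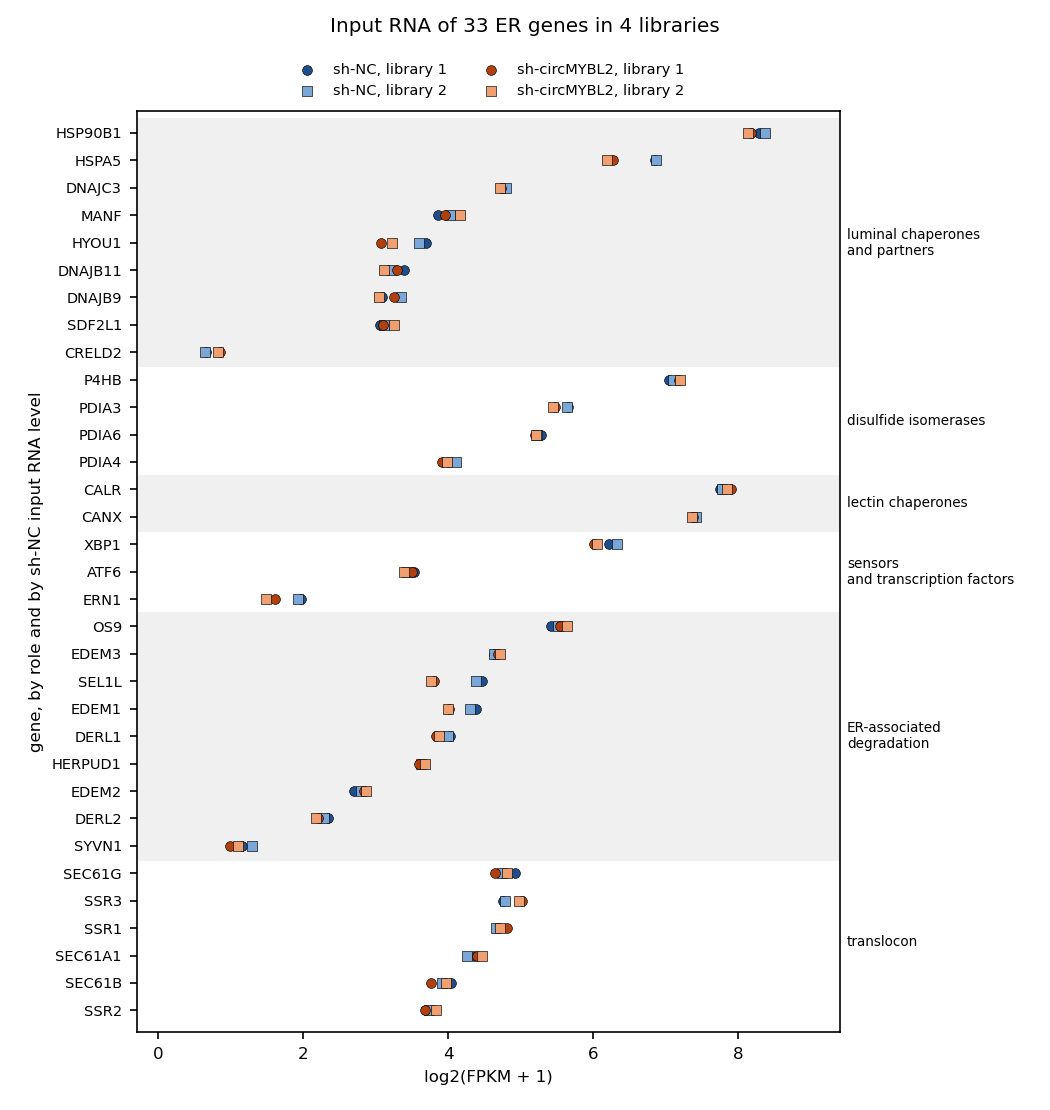
Input RNA of the 33 genes as log2(FPKM + 1) on the x axis, 1 point per library, with genes grouped by role and ordered by their mean in sh-NC. SEL1L (-0.64), HSPA5 (-0.63), HYOU1 (-0.50) and ERN1 (-0.40) are the members where the mean of the sh-circMYBL2 points (orange) stands farthest below that of the sh-NC points (blue).

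**Figure D3:**
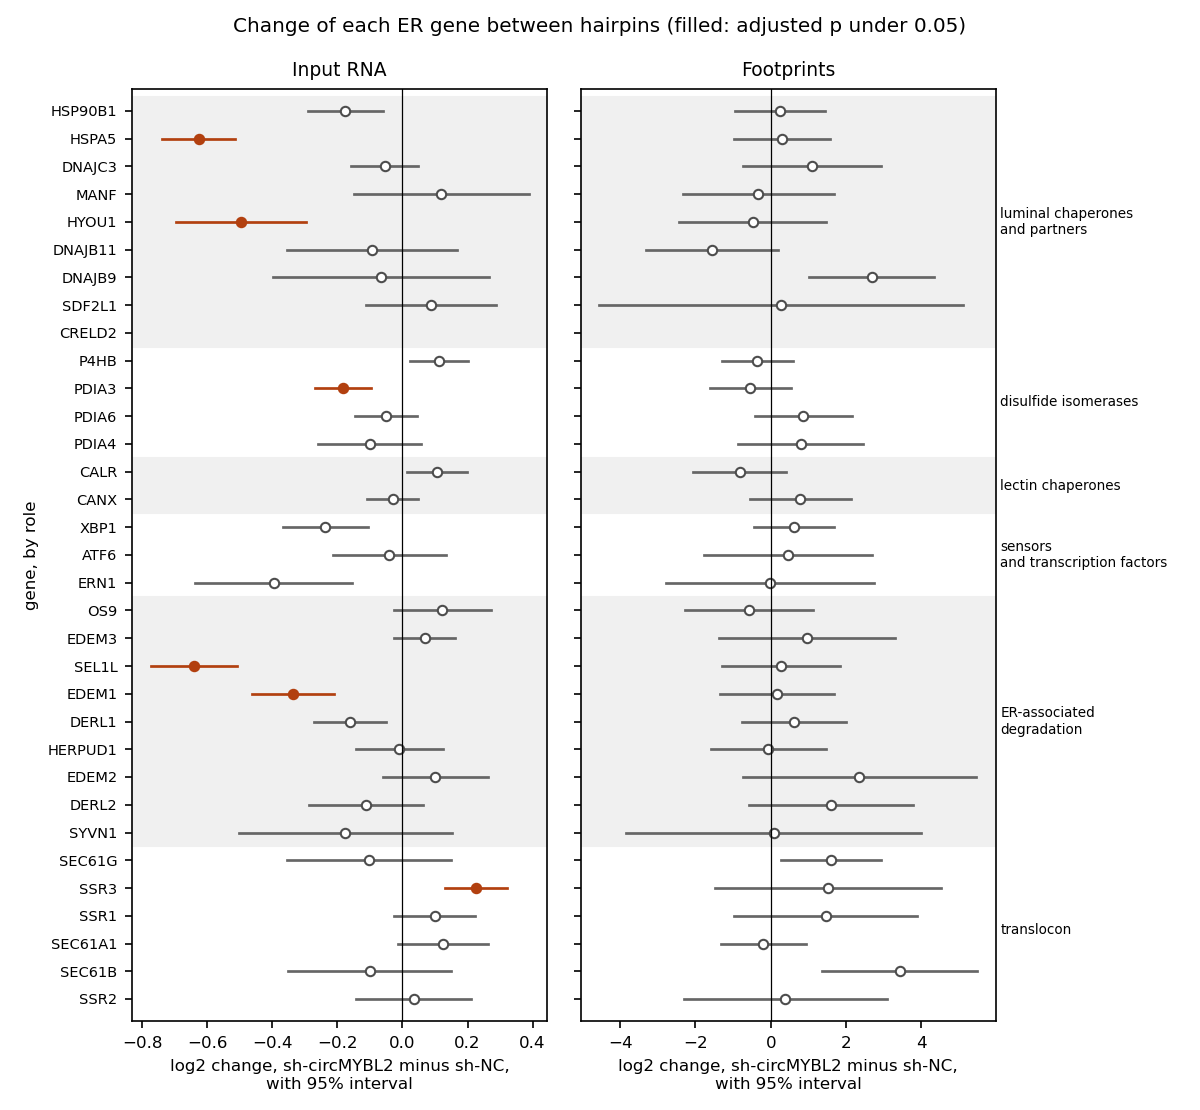
Log2 change (sh-circMYBL2 minus sh-NC, on the log2(value + 1) scale) of each member in input RNA (left) and footprints (right), with the 95% interval of limma; filled points passed an adjusted p of 0.05. The axes differ in width: RNA changes run from -0.64 to 0.23, and footprint intervals are several log2 units wide.

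HSPA5 encodes BiP, the main HSP70 chaperone of the ER lumen. Its input RNA was 115 and 115 FPKM with sh-NC and 76.4 and 71.8 FPKM with sh-circMYBL2. The level was thus 35.5% lower, a log2 change of -0.63 (SE 0.04, 95% interval -0.74 to -0.51, adjusted p = 0.0117, limma). HYOU1, the exchange factor that helps BiP release its nucleotide, had 11.9 and 11.1 FPKM with sh-NC and 7.42 and 8.32 FPKM with sh-circMYBL2. It fell by 0.50 on the log2 scale (SE 0.07, adjusted p = 0.0372, limma), and the groups did not overlap. HSP90B1, the ER member of the HSP90 family, was the most abundant of the 33 RNAs at a mean of 301 FPKM over the 4 libraries. Its values were 311 and 329 FPKM with sh-NC and 287 and 279 FPKM with sh-circMYBL2. The groups did not overlap, and the change of -0.18 (SE 0.04) had an adjusted p of 0.0822 (limma), which does not pass.

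The BiP co-chaperones with a J domain showed smaller differences. DNAJC3, also an inhibitor of PERK, had 25.8 and 26.9 FPKM with sh-NC and 25.4 and 25.2 FPKM with sh-circMYBL2. DNAJB9, a target of XBP1 that holds IRE1 inactive, had 7.53 and 9.16 FPKM with sh-NC against 8.56 and 7.28 FPKM, and its groups overlapped. DNAJB11 overlapped too, with group means of 8.87 and 8.26 FPKM. The small luminal proteins SDF2L1 and MANF had changes of 0.09 (adjusted p = 0.485, limma) and 0.12 (adjusted p = 0.479, limma), with overlapping groups. CRELD2, at 0.582 and 0.565 FPKM with sh-NC and 0.809 and 0.773 FPKM with sh-circMYBL2, was the lowest of the 33 and was not tested. Thus 2 of the 8 chaperones and partners tested fell, none rose, and the other 6 did not pass.

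The 4 disulfide isomerases form and rearrange disulfide bonds. PDIA3, the isomerase that works with calnexin and calreticulin, had 49.2 and 48.5 FPKM with sh-NC and 43.4 and 42.5 FPKM with sh-circMYBL2. It fell by 0.18 (SE 0.03, adjusted p = 0.0472, limma), the smallest of the 5 changes called lower, and lost the call with a pseudocount of 0.1. P4HB, the classical isomerase and a subunit of collagen prolyl hydroxylase, had 131 and 136 FPKM with sh-NC and 145 and 145 FPKM with sh-circMYBL2. Its groups did not overlap, and the change of 0.11 (SE 0.03) had an adjusted p of 0.114 (limma). PDIA6, which attenuates the sensors, and PDIA4 changed by -0.05 and -0.10, and neither passed.

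The lectin chaperones bind the glucose tag on new glycoproteins. Calreticulin (CALR), the soluble one, had 214 and 218 FPKM with sh-NC and 236 and 229 FPKM with sh-circMYBL2. The groups did not overlap, but the change of 0.11 (SE 0.03) had an adjusted p of 0.138 (limma). Calnexin (CANX), the membrane-bound one, had 167 and 169 FPKM with sh-NC and 165 and 164 FPKM with sh-circMYBL2, a change of -0.03 with a 95% interval of -0.11 to 0.05. None of the 2 passed the test.

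None of the 3 sensors and factors passed, and all 3 changes were negative. XBP1 had 73.3 and 78.9 FPKM with sh-NC and 63.5 and 65.3 FPKM with sh-circMYBL2. Its groups did not overlap, and its change of -0.24 (SE 0.05) had an adjusted p of 0.0622 (limma), which passed among genes with a mean of at least 5, with quantile normalization and with voom (smallest adjusted p = 6.31e-05). The value counts the whole gene, so spliced and unspliced XBP1 RNA are not separated. ERN1, which encodes IRE1, had 2.93 and 2.79 FPKM with sh-NC and 2.06 and 1.81 FPKM with sh-circMYBL2. That is 32.3% lower, with no overlap; the change of -0.40 (SE 0.09) on the log2(value + 1) scale had an adjusted p of 0.0729 (limma). ATF6 had 10.5 and 9.81 FPKM with sh-NC and 10.3 and 9.48 FPKM with sh-circMYBL2, and its groups overlapped (change -0.04, 95% interval -0.21 to 0.13).

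Of the 9 ERAD genes, 2 fell and 7 did not pass. SEL1L, the adaptor that holds the ligase SYVN1, had 21.1 and 19.9 FPKM with sh-NC and 12.99 and 12.6 FPKM with sh-circMYBL2. It was 37.7% lower, a change of -0.64 (SE 0.05, 95% interval -0.77 to -0.51, adjusted p = 0.0120, limma), the largest of the 32. EDEM1, which trims mannose from glycoproteins bound for degradation, had 19.9 and 18.7 FPKM with sh-NC and 15.1 and 15.0 FPKM with sh-circMYBL2. It fell by 0.34 (SE 0.05, adjusted p = 0.0321, limma). Its relatives lay slightly the other way: EDEM3 had 23.8 and 23.7 FPKM with sh-NC and 24.7 and 25.3 FPKM with sh-circMYBL2 (change 0.07, adjusted p = 0.274, limma), and EDEM2 changed by 0.10 (adjusted p = 0.331, limma). OS9, the lectin that hands trimmed glycoproteins to SEL1L, had 41.9 and 44.7 FPKM with sh-NC and 45.6 and 48.8 FPKM with sh-circMYBL2 (change 0.12, adjusted p = 0.233, limma). The ligase SYVN1 was low, with group means of 1.34 and 1.07 FPKM and no overlap (change -0.18, adjusted p = 0.399, limma). Of the channel proteins, DERL1 had 15.3 and 14.9 FPKM with sh-NC against 13.3 and 13.6 FPKM (change -0.16, adjusted p = 0.0902, limma), and DERL2 changed by -0.11. HERPUD1, which recruits the complex and has both an ERSE-II and the ATF4-type element, changed by -0.01 (95% interval -0.14 to 0.13).

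In the translocon, SSR3, a subunit of the TRAP complex, had 26.1 and 26.5 FPKM with sh-NC and 31.4 and 30.5 FPKM with sh-circMYBL2. It rose by 0.23 (SE 0.04, adjusted p = 0.0402, limma). SSR1 changed by 0.10 with no overlap (adjusted p = 0.248, limma), and SSR2 by 0.03 with overlap. The channel subunit SEC61A1 changed by 0.13 (adjusted p = 0.203, limma), with group means of 18.7 and 20.5 FPKM. The small subunits had overlapping groups: SEC61B had 15.4 and 14.01 FPKM with sh-NC and 12.6 and 14.7 FPKM with sh-circMYBL2, and SEC61G had 29.4 and 25.8 FPKM against 24.1 and 27.1 FPKM. Of the 6 translocon genes, 1 rose, none fell and 5 did not pass.

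The RNA changes were then read against the promoter elements. Of the 10 members with an ERSE or ERSE-II, 9 were tested and 2 fell (HSPA5 and HYOU1); of the 21 with neither, 2 fell (SEL1L and EDEM1) and 1 rose. The median log2 change of RNA was -0.05 in both sets. Members with an element ran from -0.63 (HSPA5) to 0.11 (CALR), and members with neither from -0.64 (SEL1L) to 0.23 (SSR3).

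Other genes of the same pathways were read from the same RNA test. Their lists were also chosen with earlier results of these data known, so the shares are descriptions. Of 8 genes of the PERK arm, 7 were tested. Of these, 3 fell (42.9%, against 3.96% of all genes tested) and none rose (against 4.92%). ATF4, the factor at its centre, had 50.5 and 46.3 FPKM with sh-NC and 36.1 and 35.9 FPKM with sh-circMYBL2 (change -0.42, adjusted p = 0.0284, limma). Its targets TRIB3, an inhibitor of AKT, and DDIT3, which encodes CHOP, changed by -1.94 and -1.43. PPP1R15A, the phosphatase subunit that reverses PERK signalling, had an adjusted p of 0.0822 (limma) and a change of -0.27, and EIF2AK3, which encodes PERK, changed by -0.04 (adjusted p = 0.826, limma). None of 5 tested other transducers and their proteases passed. Among 23 tested other folding enzymes, 3 fell (13%) and none rose: HSPA13 (-0.47), the isomerase PDIA5 (-0.30) and the ERAD reductase DNAJC10 (-0.31).

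The glycan enzymes lay in both directions. Of 7 calnexin cycle enzymes, the folding checkpoint UGGT2 fell (-0.35) and PRKCSH, the beta subunit of glucosidase II, rose (0.29). Each is 14.3% of that list. Of 10 tested subunits of oligosaccharyltransferase, which attaches the glycan, RPN1 rose (0.22), which is 10% of them, and the other 9 did not pass. Of 17 tested other ERAD genes, 1 fell (5.88%), ERLIN2 (-0.53), a scaffold that binds IP3 receptors for degradation. Of 18 other translocation genes, 1 fell (5.56%), the signal peptidase subunit SEC11C (-0.45). Over all genes tested, 3.96% were called lower and 4.92% higher, so the shares of these last 2 lists are near that of all genes. Like the members' calls, all of these were lost with any 1 RNA library left out.

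The footprint comparison asked whether ribosome occupancy differed. No member passed in footprints (limma, 32 tested, smallest adjusted p = 0.323), nor did any of the 9431 genes tested (0% in either direction). At an unadjusted p under 0.05, 0 members were lower (1.75% of all genes) and 3 higher (DNAJB9, SEC61B and SEC61G, against 11.1% of all genes). These 3 had no read in either sh-NC library, so they passed the filter only through the group where they are high. That fixed the direction, and they are no support for a difference. Voom called no member either, while it called 0.307% of all genes lower and 0.0424% higher. The shallowest library had 8 members without a read and 12 members with at least 10 reads, and the deepest had 0 and 30. Single member changes had standard errors of 0.34 (P4HB) to 1.77 (SDF2L1), against 0.03 to 0.12 in RNA, so these libraries could not show a change of the size seen in RNA. Depth and the spread between 2 libraries were not separated in this. In simulated footprint data, the same fit called 0% of the genes that were changed 4-fold. The lack of calls therefore says nothing on larger changes either.

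The median footprint change was 0.34 over the members and 0.56 over all genes tested. This order depended on the scaling: with quantile normalization the medians were 0.35 and 0.07, and with voom 0.38 and 0.29. It also rested on single libraries: the medians were 0.014 and 0.21 without sh-NC library 1, 0.56 and 0.96 without library 2, and 0.55 and 0.56 without sh-circMYBL2 library a. Among genes above 0 in all 4 footprint libraries, the medians were 0.28 for 24 members and -0.01 for 4438 genes. The sh-circMYBL2 libraries were both below the sh-NC libraries in 4 members (12.5%; DNAJB11, PDIA3, P4HB and CALR) against 10.9% of all genes, and both above in 12 (37.5%) against 30.7%. Within genes above 0 in every library these shares were 16.7% against 21.9% and 29.2% against 22.5%. Together the 33 genes took 1.20% (95% Wilson interval 1.09% to 1.32%) and 1.17% (1.10% to 1.25%) of protein-coding footprint reads with sh-NC, and 1.08% (1.03% to 1.14%) and 1.08% (1.05% to 1.10%) with sh-circMYBL2. In RNA the shares were 0.868% and 0.878% against 0.842% and 0.837%. Such intervals cover counting error only, since reads without molecular identifiers are not independent molecules. The sums lean on few genes. CALR alone held 112 of 405 and 159 of 1041 member footprint reads with sh-NC. With sh-circMYBL2 it held 190 of 1362 and 566 of 6294. In RNA, HSP90B1 and HSPA5 held 19428 and 5963 of 92025 and 22219 and 6477 of 101292 member reads with sh-NC. With sh-circMYBL2 they held 18688 and 4146 of 91668 and 19030 and 4074 of 94919. The shares are thus no statement on the 33 genes as a whole.

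**Figure D4:**
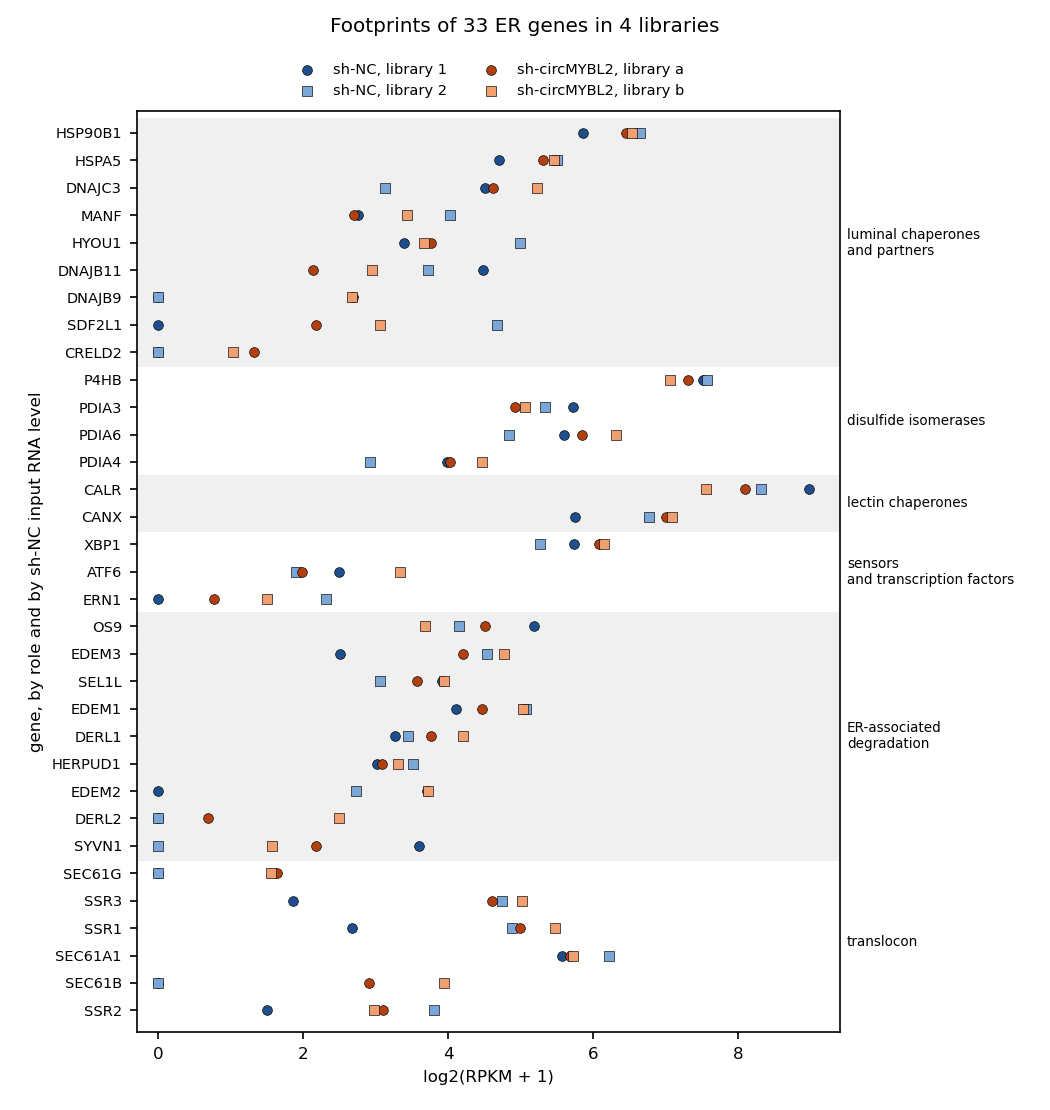
Footprints of the 33 genes as log2(RPKM + 1) on the x axis, 1 point per library, in the gene order of the RNA plot; points at 0 had no read and may hide each other. The sh-NC library 1 points (dark blue) often stand apart from library 2, and 5 members (CRELD2, DERL2, DNAJB9, SEC61B and SEC61G) are at 0 in both sh-NC libraries.

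For the 6 members called in RNA, footprints were as follows. HSPA5 had 24.9 and 44.1 RPKM with sh-NC (8 and 32 reads) and 38.5 and 43.0 RPKM with sh-circMYBL2 (39 and 187 reads). These groups overlapped, unlike its RNA (footprint change 0.29, SE 0.47). HYOU1 had 9.48 and 30.8 RPKM (6 and 44 reads) against 12.5 and 11.7 RPKM (25 and 100 reads), so that the sh-NC libraries stood on either side of the others. SEL1L had 13.99 and 7.33 RPKM (11 and 13 reads) against 10.9 and 14.3 RPKM (27 and 152 reads), with overlap. EDEM1 overlapped as well, with 16.2 and 32.7 RPKM (9 and 41 reads) against 21.1 and 31.8 RPKM (37 and 239 reads). PDIA3 had 51.6 and 39.4 RPKM (18 and 31 reads) with sh-NC and 29.1 and 32.2 RPKM (32 and 152 reads) with sh-circMYBL2; here the groups did not overlap and lay in the direction of the RNA (footprint change -0.54, SE 0.40, adjusted p = 0.627, limma). SSR3 had 2.63 RPKM from 1 read and 25.6 RPKM from 22 reads with sh-NC, and 23.4 and 31.4 RPKM (28 and 162 reads) with sh-circMYBL2.

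The members with the most abundant RNA were read next. CALR had 502 and 316 RPKM with sh-NC (112 and 159 reads) and 270.4 and 187 RPKM with sh-circMYBL2 (190 and 566 reads). Summed over libraries and scaled to the deposited totals, its reads with sh-circMYBL2 were 0.545 times those with sh-NC (95% counting interval 0.473 to 0.628), while the limma change of -0.82 (SE 0.45) had an adjusted p of 0.584 and turned to 0.32 under quantile normalization. P4HB had 181 and 188 RPKM (79 and 185 reads) against 157 and 132 RPKM (216 and 778 reads); its change of -0.36 (SE 0.34, adjusted p = 0.692, limma) turned to 0.50 under quantile normalization. Thus the footprints of both genes lay lower with sh-circMYBL2 in the deposited scaling, where their RNA lay higher. CANX had 52.6 and 108 RPKM (27 and 125 reads) against 127 and 134 RPKM (205 and 933 reads), a scaled read ratio of 1.46 (1.23 to 1.74). HSP90B1 had 57.0 and 98.7 RPKM (22 and 86 reads) against 86.4 and 91.8 RPKM (105 and 480 reads), with overlap.

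Among the sensors, XBP1 had 52.2 and 37.4 RPKM with sh-NC (13 and 21 reads) and 66.3 and 69.7 RPKM with sh-circMYBL2 (52 and 235 reads). The groups did not overlap and lay opposite to those of its RNA (footprint change 0.61, SE 0.39, adjusted p = 0.627, limma). ATF6 had 4.62 and 2.73 RPKM (3 and 4 reads) against 2.94 and 9.11 RPKM (6 and 80 reads). ERN1 was listed at 0 and at 3.97 RPKM (8 reads) with sh-NC and at 0.711 and 1.82 RPKM (2 and 22 reads) with sh-circMYBL2. Both genes overlapped between the groups.

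For the 2 lead members of the ERAD group, OS9 had 35.3 and 16.7 RPKM with sh-NC (15 and 16 reads) and 21.7 and 11.8 RPKM with sh-circMYBL2 (29 and 68 reads). EDEM3 had 4.67 and 22.1 RPKM (3 and 32 reads) against 17.3 and 26.1 RPKM (35 and 227 reads), and both genes overlapped. Scaled read ratios whose counting interval lay above 1 were found for DNAJC3 (2.82), PDIA4 (2.2), PDIA6 (2.21), ATF6 (2.40), DERL1 (1.74), SSR1 (1.92), XBP1 (1.65), SSR3 (1.61), EDEM3 (1.46) and CANX. Intervals below 1 were found for HYOU1 (0.488), DNAJB11 (0.407), OS9 (0.611), P4HB (0.735) and CALR. The remaining members with reads in both groups, among them SDF2L1, MANF, SYVN1, HERPUD1, EDEM2, SEC61A1 and SSR2, had counting intervals that span 1. These ratios leave out the spread between libraries, and for ATF6 80 of the 86 sh-circMYBL2 reads came from library b. They were not computed for all genes, so no share over all genes stands beside these lists. The median footprint change of all genes tested was itself 0.56, and the lists are not read as a result about the members.

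No sh-NC footprint read fell on CRELD2, DERL2, DNAJB9, SEC61B or SEC61G. DNAJB9 had 5.45 and 5.38 RPKM with sh-circMYBL2 (4 and 17 reads), and SEC61B had 6.49 and 14.3 RPKM (2 and 19 reads). Set against 3 reads in the 2 sh-NC libraries together, the floor used for a count of 0, both stood at 1.37 times the floor. DERL2 (1 and 33 reads) stood at 2.21 times the floor. For DNAJB9 the ratio was alike from library a (1.38) or b (1.36) alone. For SEC61B and DERL2 it rested on library b, since in library a alone both were under the floor. Counting error of the sh-circMYBL2 reads is left out, so the ratios are not lower bounds and do not show a difference. SEC61G had 2.1 and 1.95 RPKM from 1 and 4 reads, under the floor after scaling, as did CRELD2 with 2 and 6 reads, so no fold is given for either.

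Translational efficiency (TE), the footprint change beyond the RNA change, was tested as the interaction of hairpin and assay. Of 32 members, 2 passed, both higher with sh-circMYBL2: DNAJB9 (2.75, SE 0.39, adjusted p = 0.0289, limma) and SEC61B (3.52, SE 0.56, adjusted p = 0.0309, limma). Both are listed at 0 in both sh-NC footprint libraries. They passed the filter on low values only through the group where they are high, which also fixes the direction, and 2 equal zeros add no spread to the SE. Their fitted changes ran with the setting from 1.10 to 5.86 (DNAJB9) and from 1.66 to 6.72 (SEC61B), so the 2 calls are given as a description and not as support for a difference. The share, 6.25%, stood against 5.05% of the 8260 genes tested; none was lower against 0.266%. Unadjusted, 1 member was lower (DNAJB11, against 3.95% of all genes) and 4 higher (with XBP1 and SEC61G, against 15.6%). SEC61G too was at 0 in both sh-NC footprint libraries, so the same limit holds for it. Voom called no member, with 0.484% of all genes lower and 2.05% higher, and the calls were also lost with a separate weight per assay, with a pseudocount of 5 and with any 1 RNA library left out. The fit shares 1 variance over both assays, although footprints varied more.

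The members called in RNA did not pass in TE. HSPA5 had a TE change of 0.91 (SE 0.42, adjusted p = 0.313, limma) and SEL1L of 0.91 (SE 0.48, adjusted p = 0.382, limma). Their footprint-to-RNA ratios, RPKM over the mean FPKM of the same hairpin, were 0.217 and 0.384 under sh-NC and 0.520 and 0.580 under sh-circMYBL2 for HSPA5, without overlap. For SEL1L they were 0.682 and 0.357 against 0.854 and 1.12, also without overlap. The median ratio of all genes was 0.296 and 0.635 in the libraries of sh-NC and 0.787 and 0.887 in those of sh-circMYBL2. These medians do not overlap either. The share of all genes whose ratios do not overlap was not computed, so the separation is not read as particular to HSPA5 and SEL1L. Both genes were also picked by their lower RNA, which is the divisor of the ratio, and their footprints alone overlapped between the hairpins. A higher ratio and a positive TE change thus follow in part from that choice and are no separate result. The median TE change was 0.65 over the members and 0.57 over all genes, but it moved with the gene set, the scaling and the libraries. Among genes above 0 in all 4 footprint libraries it was 0.50 for 24 members and 0.03 for 4200 genes, and with quantile normalization 0.45 and -0.0045. Without sh-NC footprint library 1 it was 0.14 over the members and 0.21 over all genes, and without library 2 it was 0.82 and 0.94. HYOU1 (0.02), EDEM1 (0.50), PDIA3 (-0.36), SSR3 (1.29), XBP1 (0.85), P4HB (-0.47) and CALR (-0.93) had TE changes with adjusted p from 0.218 (XBP1) to 0.992 (HYOU1) (limma).

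**Figure D5:**
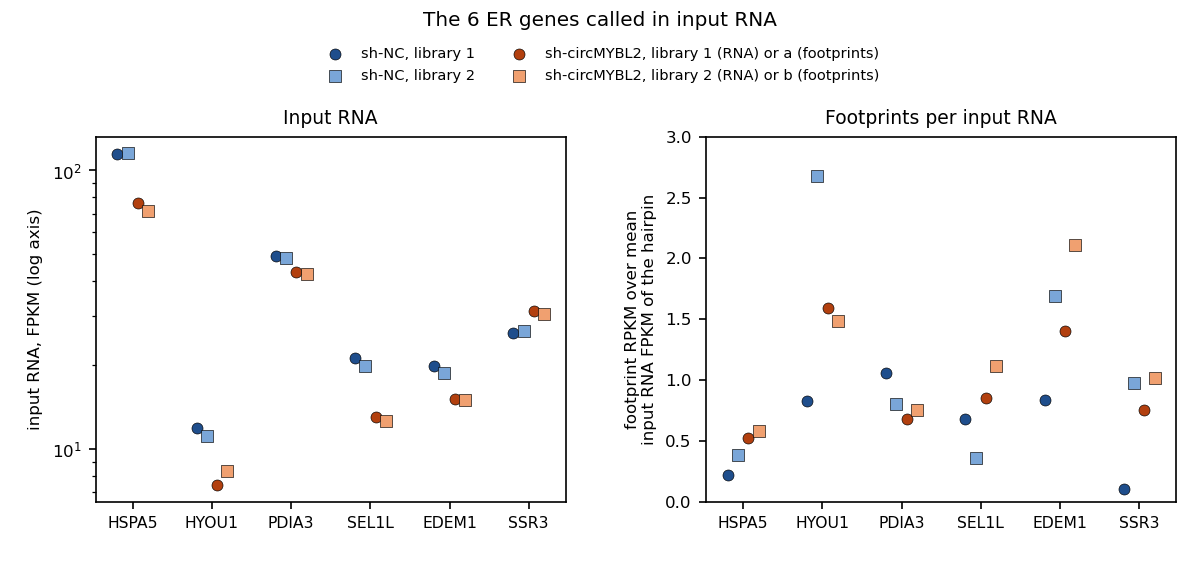
The 6 members called in input RNA: FPKM of each RNA library on a log axis (left), and footprint RPKM of each library over the mean FPKM of its hairpin (right). The RNA groups are apart for all 6, and the ratios overlap for HYOU1, EDEM1 and SSR3 and are apart for PDIA3, SEL1L and HSPA5, where the last runs from 0.217 to 0.580. The share of all genes whose ratios are apart was not computed. The genes were picked by their RNA change, and the ratio divides by that RNA. The footprints of HSPA5 and SEL1L alone overlapped.

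The ratio also ordered the members within a library, where the same scaling holds for every gene and the gene length cancels, although the coding part of each gene does not. In all 4 libraries 6 members were above the median of all genes: SEC61A1, HYOU1, PDIA6, P4HB, EDEM1 and DERL1. SEC61A1 had the ratios 2.49 and 3.92 under sh-NC and 2.44 and 2.52 under sh-circMYBL2. Below the median in all 4 were HSPA5, HSP90B1, DNAJB9 and SEC61G, and HSP90B1 had 0.178 and 0.308 under sh-NC and 0.305 and 0.325 under sh-circMYBL2. Of the 9 genes grouped here as luminal chaperones and partners, which leaves out CALR, HSP90B1 and HSPA5 have the highest RNA level per length. The small channel subunit SEC61G, at 26.6 FPKM of RNA as a mean over the 4 libraries against 19.6 FPKM for SEC61A1, was listed at 0 with sh-NC and had 0.0819 and 0.0762 with sh-circMYBL2. Some positions rest on few reads: in sh-NC library 1, DERL1 had 5 reads and HYOU1 had 6, and DNAJB9 had none in either sh-NC library. In sh-NC library 2 the ratio of DERL1 was 0.653 against a median of 0.635. The share of all genes above or below the median in all 4 libraries was not computed. These are positions of single genes in 4 libraries, and no test was made of them.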

How the data were processed

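Footprint and input RNA libraries of MOLM-13 cells were grouped by sample title. Ribosomal RNA was removed and a small RNA kit was used, per the labels' protocols. The submitters' processing notes list cutadapt, Bowtie, HISAT2 and featureCounts, also DESeq2, and the build hg38; their roles and the strand setting were not given in the sources used here, so reads of overlapping and antisense genes may be mixed. The authors deposited footprints as RPKM values and input RNA as FPKM values, both reads per gene length scaled to a total for each library. Low values were whole multiples of the value of 1 read (97.8% to 99.4% of microRNA genes within 0.02 reads), so reads were recovered for all but 3 genes; they served for depth, counting intervals and voom.

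Each table was fitted with limma 3.58.1 in R 4.3.3 (lmFit, eBayes with trend, two-sided) on log2(value + 1), over genes with a mean of at least 1, with Benjamini-Hochberg adjustment over all genes tested and a threshold of 0.05. Fold changes on this scale understate those of low genes. TE was the interaction over all 8 libraries. An exact permutation of 2 against 2 libraries cannot go below 0.333. Alternatives were other pseudocounts, filters, normalization, voom with TMM factors, a weight per assay, a replicate block and leaving out each library. The read recovery and the fits were tested on simulated data.

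The 33 members and the other lists were chosen with earlier results of these data known. Every library value is given for members called in any comparison, for the 3 sensors and for the 2 most abundant members of each role; of other lists, up to 3 called genes with the largest change are named. PPP1R15A and EIF2AK3 lie outside it: both were picked after their values were seen. Promoters came from RefSeq (GRCh38.p14).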

Additional observations from a re-analysis of the deposited data

Results flagged for a closer look

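The interaction of hairpin and assay passed the threshold for DNAJB9 (2.746 on the log2(value + 1) scale) and SEC61B (3.523). Neither had a footprint read in a sh-NC library, and each had 21 reads with sh-circMYBL2, so both entered the test only through the group where they are high, and it does not support a difference. The fitted values rest on the pseudocount over a group at 0: they ran from 1.10 to 5.86 and from 1.66 to 6.72 over the alternatives. The sh-NC footprint libraries also had fewer reads on protein-coding genes (33708 and 88701 against 125761 and 584185); the part of depth in these results was not tested.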

How the results depend on the processing

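The 5 lower and 1 higher RNA calls became 9 and 5 with voom on recovered reads, and 0 and 0 without a filter (smallest adjusted p of a member 0.0535, limma). Leaving out any 1 RNA library gave 0 and 0, where the lone sample is assumed to vary like the others. With the replicate block in RNA the counts were also 0 lower and 0 higher (smallest adjusted p 0.0502, limma). Same-numbered libraries did not deviate together (r = 0.0265 over genes, 2 pairs). This cannot show whether they were prepared together, and the labels do not say. No paired analysis was possible for footprints and TE because the number in the sh-circMYBL2 footprint columns may name the hairpin and not the replicate. For the other pathway lists, 9 lower and 2 higher genes became 21 and 12 with voom, 1 and 0 without a filter, 0 and 0 with the replicate block or with any 1 library left out (0 to 0), and 4 higher with a mean of at least 5. No footprint call was made except 4 higher without sh-circMYBL2 library a or b (range 0 to 4: DNAJB9, DERL2, SEC61B and SEC61G). The 2 higher TE calls became 0 with a pseudocount of 5, a mean of at least 5, quantile normalization, voom or a weight per assay, and ranged from 0 to 16 (lower, 0 to 4) with 1 library left out; 0 was reached without any RNA library, 10 and 16 without sh-NC footprint library 1 or 2. The cause was not tested. The 4 genes named for footprints had no sh-NC footprint read, so those calls do not support a difference.

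Direction turned in a few uncalled log2 changes. Quantile normalization gave footprint changes of 0.496 (P4HB) and 0.324 (CALR), and TE changes of 0.155 (P4HB), 0.000502 (CALR) and -0.112 (HYOU1). TE of HYOU1 was -0.0538 with a pseudocount of 5 and -0.0673 with voom. Over left-out libraries, RNA changes ranged from -0.092 to 0.012 (ATF6), -0.192 to 0.0614 (DNAJB9) and -0.205 to 0.00277 (SEC61B). Footprint changes ranged from -0.113 to 0.688 (HSPA5), -1.28 to 0.322 (HYOU1), -0.152 to 0.696 (SEL1L) and -0.322 to 0.648 (EDEM1), and TE changes from -0.783 to 0.818 (HYOU1) and -0.147 to 2.73 (SSR3). The RNA changes of HSPA5, HYOU1, PDIA3, SEL1L, EDEM1 and SSR3 kept their sign under all 11 alternatives. Since the RNA groups of these genes do not overlap, another pseudocount, filter, block or left-out library could not have turned it. Only quantile normalization and voom could have done so.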
